A study of Mus musculus with 8 samples.

Results

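The genes described here make, take up, esterify and sense cholesterol. They comprise 32 named genes, from the sterol sensors through 17 enzymes of synthesis in pathway order to the receptors and handling proteins, and were matched by gene symbol to the array annotation. A named probe set was found for 29 of the 32, out of 18193 genes with one. Soat1, Soat2 and Acat2 were not analysed here. RNA was taken from the whole liver of 8 mice aged 6 weeks and hybridised to 1 array per mouse. The 3 controls carry the genotype label WT. The 5 others are labelled POMCMfn2KO, a name for the loss of the mitochondrial fusion gene Mfn2 from the proopiomelanocortin (POMC) neurons of the hypothalamus. All 8 mice share a mixed background of C57Bl/6J, FVB/N and 129 and ate standard chow freely under a cycle of 12 h light and 12 h darkness. The labels name no Cre line, sex, collection time or feeding state. Since the deletion is not in the liver, the level of Mfn2 in these samples does not check the labels. The labels call the arrays biological replicates, so the p-values measure the spread between mice.

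Cells keep their cholesterol steady through a feedback in the endoplasmic reticulum. When sterols are scarce, the escort protein SCAP carries the transcription factor SREBP2 (gene Srebf2) to the Golgi, where it is cut, and the freed part switches on the enzymes of synthesis and the receptors of uptake. When sterols are plentiful, INSIG proteins hold SCAP back. The liver is a main site of cholesterol synthesis and the organ that clears lipoprotein remnants and disposes of sterol in bile.

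The medians of the arrays lay between 5.79 and 5.81 on the log2 scale, and albumin (Alb), the leading hepatocyte marker, was at 15.24 to 15.28 in all 8. The summed level of 9 hepatocyte markers was 17.77 to 17.78 (log2) in controls and 17.80 to 17.87 in POMCMfn2KO, without overlap. Of these 9, Cps1, an enzyme of the urea cycle, rose (0.31) and none fell. Of 13 named markers of pancreatic acinar cells, 12 were tested and none passed, but their summed level was 10.45 to 10.48 (log2) in controls, 10.46, 10.61 and 11.08 in POMCMfn2KO 5, 1 and 4, and 14.50 and 14.63 in POMCMfn2KO 2 and 3. On this scale no marker can be at 0, and 6 of the 13 had a control mean below 5.80, the median over probe sets, under which a gene is called dim. Dbp, a clock output gene, fell from 10.07 ± 0.06 to 7.90 ± 0.21 (SD, n = 3 and 5), and Arntl, a clock activator gene, rose from 8.24 ± 0.003 to 8.92 ± 0.14. The part of pancreatic transcripts and of the clock genes in the results below was not tested. Since the labels give no collection time, a difference in collection time and one in genotype cannot be told apart in any change below. The main counts are also given without POMCMfn2KO 2 and 3.

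Of the 29 genes tested, 5 fell in POMCMfn2KO liver and none rose. They were 3 enzymes of synthesis, Hmgcs1, Fdps and Nsdhl, and 2 lipoprotein receptors, Vldlr and Lrp1. A fall here means a lower level in POMCMfn2KO with an adjusted p under 0.05 in limma's moderated test, adjusted over all 11986 genes that were not dim. By that rule 18% of all tested genes changed, 10.9% falling and 7.02% rising, against 17.2% falling and none rising of these 29. At an unadjusted p under 0.05 there were 9 genes (31.0%, against 33.1% of all tested genes), in both directions. The median log2 change was -0.10 for the 29 and -0.02 for all tested genes. In 7 of the 29 every POMCMfn2KO value lay below every control value, which was so for 16.5% of all tested genes, and in none did every value lie above, which was so for 12% of all tested genes. Leaving out arrays also changed the number of calls over all genes, down in some fits and up in others. The number of members that fell was 0 without control 1, 0 without control 2 and 1 (Vldlr) without control 3, where 4.14%, 4.46% and 4.67% of all tested genes fell. It was 2 without POMCMfn2KO 2 and 3 without POMCMfn2KO 3, where 7.62% and 7.44% of all tested genes fell. Without POMCMfn2KO 4 it was 6, where 13.3% of all tested genes fell, and 2 members rose, where 1156 of the 11986 tested genes rose. Without POMCMfn2KO 1 it was 6 and no member rose, where 13.7% of all tested genes fell and 1118 rose. Without POMCMfn2KO 5 it was 5, where 10.5% of all tested genes fell. Without POMCMfn2KO 2 and 3 together, 2 members fell (Fdps and Vldlr, 6.90%, against 3.35% of all tested genes) and none rose. There, 9 members lay below every control (31.0%, against 18.8%) and 1 above (3.45%, against 14.1%), and 9 had an unadjusted p under 0.05 (31.0%, against 24.5%).

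**Figure D1:**
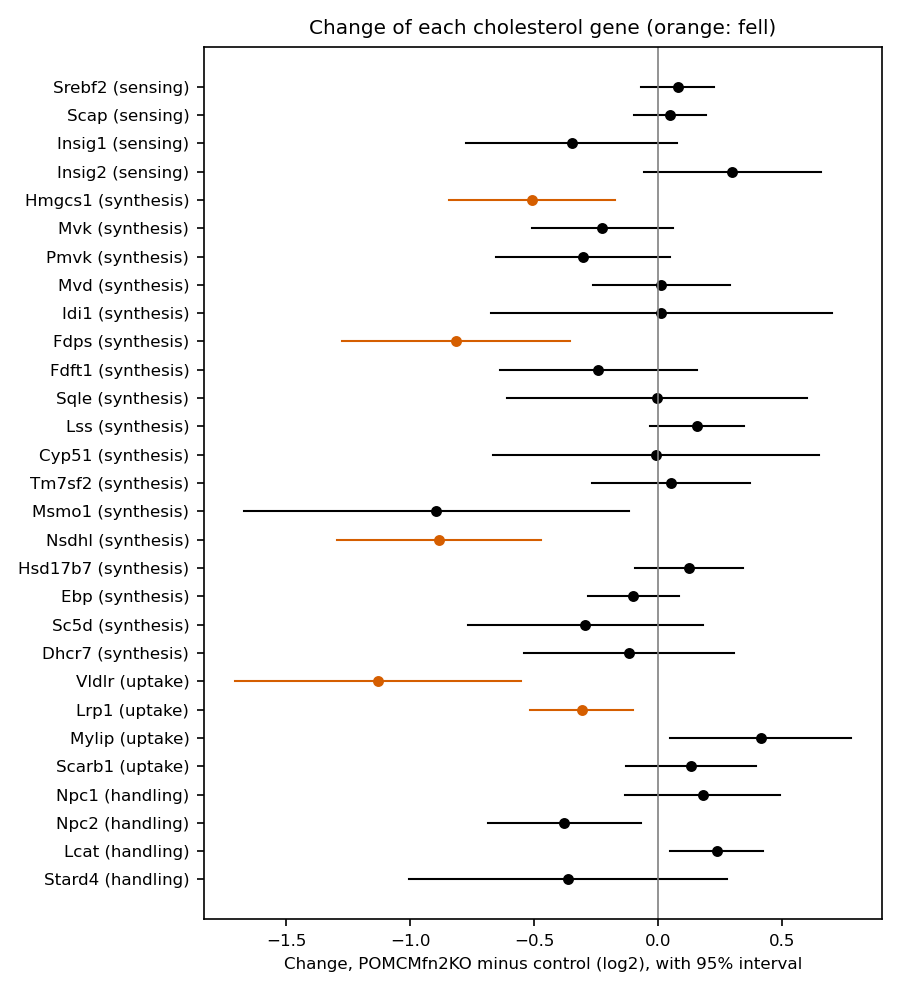
Change of each of the 29 tested cholesterol genes in log2 units, POMCMfn2KO minus control, as points with 95% intervals from limma. Orange marks the 5 genes that fell, and the list of each gene stands in brackets. The intervals of Msmo1, Npc2, Mylip and Lcat also leave out 0, but these genes did not pass after adjustment over all genes.

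No listed gene of the machinery that senses sterols passed the test. Srebf2, the gene of SREBP2, was at 7.98, 8.002 and 8.12 in controls and between 8.02 and 8.18 in POMCMfn2KO, with a log2 change of 0.08 (95% interval -0.07 to 0.22). Scap, the gene of the escort protein, gave a log2 change of 0.05 (-0.10 to 0.19). The INSIG genes were wider spread. Insig1, itself a target of SREBP2, was at 10.02, 9.98 and 9.91 in controls and at 9.10, 9.51, 10.09, 9.85 and 9.54 in POMCMfn2KO 1 to 5. POMCMfn2KO 3 was above all controls and the other 4 were below them (log2 change -0.35, adjusted p = 0.233; -0.22 without POMCMfn2KO 1). Insig2, which in liver is controlled apart from SREBP2, was at 12.80, 12.81 and 12.77 in controls and at 13.59, 12.9996, 12.91, 13.17 and 12.78 in POMCMfn2KO 1 to 5. Of these, 4 lay above every control and POMCMfn2KO 5 lay among them (0.30, adjusted p = 0.228; 0.17 without POMCMfn2KO 1). The call for Insig2 depended on the probe set: its second brightest gave 0.66 and passed (adjusted p = 0.0025), and the dimmest of its 3 gave 0.26.

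The upper part of the synthesis pathway builds mevalonate and turns it into farnesyl diphosphate, the unit of which squalene and the isoprenoids are made. At its head stands Hmgcs1, the cytosolic synthase that makes HMG-CoA. Its level was 11.84, 11.80 and 11.77 in controls and 10.78, 11.34, 11.44, 11.41 and 11.49 in POMCMfn2KO 1 to 5. All 5 lay below the controls, POMCMfn2KO 1 farthest, and the gene fell by 0.51 ± 0.15 (SE) on the log2 scale, 1.42-fold (adjusted p = 0.0439). The other 3 bright probe sets of Hmgcs1 gave -0.53, -0.44 and -0.38. Fdps, farnesyl diphosphate synthase, was at 9.22, 9.24 and 9.16 in controls and at 7.91, 8.03, 8.90, 8.60 and 8.50 in POMCMfn2KO 1 to 5. The groups did not overlap, with POMCMfn2KO 1 and 2 lowest, and the gene fell by 0.82 ± 0.20 (SE), 1.76-fold (adjusted p = 0.0250). Averaging in a dim second probe set of Fdps, with a mean level of 3.56, made its log2 change -0.41.

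The listed genes between these enzymes, Mvk, Pmvk, Mvd and Idi1, did not pass. They do not cover every step, and the genes of other steps were not examined here. Mvk, mevalonate kinase, gave a log2 change of -0.23 and Pmvk, phosphomevalonate kinase, one of -0.30 (adjusted p = 0.249 and 0.210). Of the 5 POMCMfn2KO values, 4 were below every control for Mvk and 3 for Pmvk, and without POMCMfn2KO 5 the change of Mvk was -0.14. Mvd, the decarboxylase of the next step, gave a log2 change of 0.01 and was the one synthesis gene with a larger SD in controls (0.23) than in POMCMfn2KO (0.17). Idi1, which isomerises isopentenyl diphosphate, was at 8.81, 8.77 and 8.54 in controls and at 8.25, 9.12, 9.50, 8.76 and 7.97 in POMCMfn2KO 1 to 5. POMCMfn2KO 2 and 3 were above every control, 1 and 5 below, so a log2 change of 0.01 went with a 95% interval of -0.68 to 0.70. A second probe set of Idi1 gave -0.57, and without POMCMfn2KO 2 and 3 the change was -0.38.

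From squalene to the first sterols, no listed gene passed and the POMCMfn2KO mice differed widely from each other. Sqle, squalene epoxidase, was at 8.06, 8.04 and 7.89 in controls and at 7.44, 7.69, 8.80, 8.28 and 7.74 in POMCMfn2KO 1 to 5. POMCMfn2KO 3 and 4 were above the controls and the other 3 below, with a log2 change of -0.0049 (95% interval -0.61 to 0.60). Cyp51, the demethylase of lanosterol, was at 8.78, 8.78 and 8.72 in controls and at 7.81, 8.91, 9.47, 8.80 and 8.75 in POMCMfn2KO 1 to 5. Here POMCMfn2KO 1 was low and 3 was high, with a log2 change of -0.010 (-0.67 to 0.65). Fdft1, squalene synthase, was at 10.37, 10.28 and 10.41 in controls and at 9.52, 10.15, 10.41, 10.15 and 10.33 in POMCMfn2KO 1 to 5. POMCMfn2KO 1 was far below the rest, and the log2 change of -0.24 became -0.094 without it. Lss, lanosterol synthase, gave a log2 change of 0.15 (0.097 without POMCMfn2KO 3) and Tm7sf2, a sterol reductase, one of 0.05. These data do not show that Sqle, Cyp51 and Idi1 were alike in the groups, since each interval is wide on both sides of 0.

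Msmo1, Nsdhl and Hsd17b7 act in series to strip methyl groups from the sterol nucleus, and their means differed in sign. Nsdhl, the decarboxylating dehydrogenase of that series, was at 9.75, 9.71 and 9.78 in controls and at 8.41, 8.72, 9.07, 9.36 and 8.74 in POMCMfn2KO 1 to 5. It had the lowest p of the synthesis genes: no value overlapped, and it fell by 0.88 ± 0.18 (SE), 1.84-fold (adjusted p = 0.0122). Msmo1, the oxidase before it, was at 10.001, 10.01 and 10.06 in controls and at 8.94, 8.64, 9.89, 9.86 and 8.33 in POMCMfn2KO 1 to 5. The groups did not overlap, but POMCMfn2KO 3 and 4 lay just under the controls and the other 3 far lower, and a log2 change of -0.89 ± 0.34 (SE) did not pass (adjusted p = 0.103). It passed without POMCMfn2KO 4 (-1.08, adjusted p = 0.0396). Hsd17b7, the reductase of the series, gave a log2 change of 0.12 on its brightest probe set and 0.29 and 0.57 on the next 2, and 0.072 on the brightest without POMCMfn2KO 4. The last of the listed enzymes did not pass. Ebp, an isomerase, gave a log2 change of -0.10 (-0.066 without POMCMfn2KO 2). Sc5d, a desaturase, gave -0.29, which was -0.12 without POMCMfn2KO 1. Dhcr7, which makes cholesterol from its last precursor, gave -0.12, which ranged from -0.26 without POMCMfn2KO 1 to -0.0072 without POMCMfn2KO 5. In all, 3 of the 17 synthesis genes fell and 12 of 17 had a lower mean in POMCMfn2KO, 4 of them without overlap, with a median log2 change of -0.12. These are 17.6%, 70.6% and 23.5% of the 17, where 10.9%, 54.2% and 16.5% of all tested genes did so. Without POMCMfn2KO 2 and 3, 1 of the 17 fell, 14 had a lower mean and 5 lay below every control (5.88%, 82.4% and 29.4%, against 3.35%, 53.9% and 18.8% of all tested genes).

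**Figure D2:**
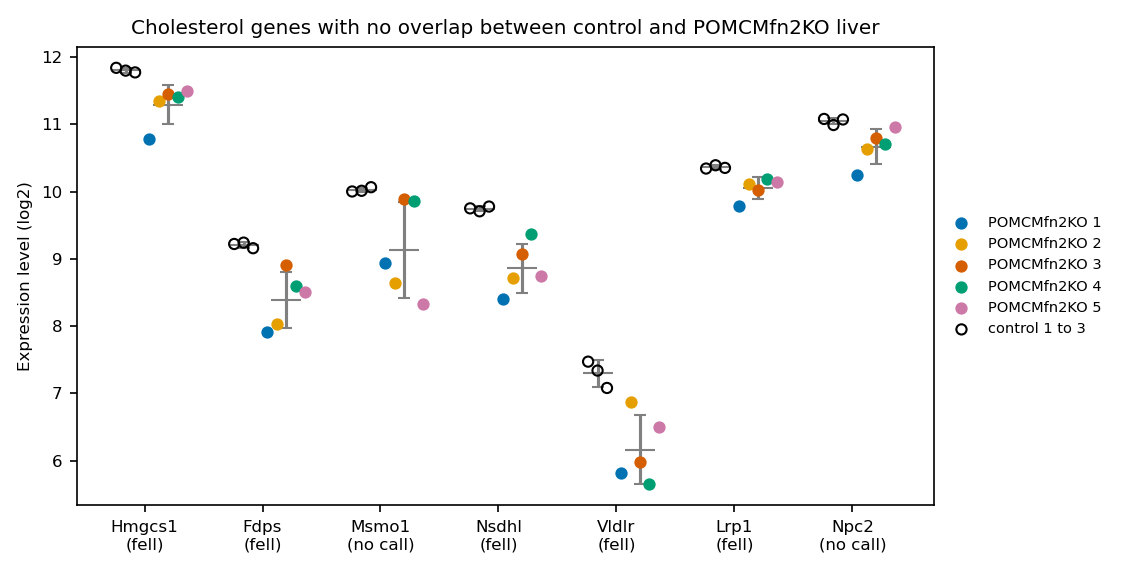
Levels (log2) of the 7 cholesterol genes whose groups did not overlap. Open circles are the 3 controls, coloured points the 5 POMCMfn2KO mice, and grey bars the mean ± SD of each group. Every coloured point lies below the open circles of its gene, and Msmo1 shows a gap between POMCMfn2KO 3 and 4 (9.89 and 9.86) and the other 3 mice (8.33 to 8.94).

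The synthesis enzymes lost their calls in some fits with 1 array left out, while their log2 changes moved by less than 1.5 times. Without 1 control at a time, the log2 change lay between -0.53 and -0.49 for Hmgcs1, -0.84 and -0.80 for Fdps and -0.90 and -0.87 for Nsdhl. Over the 8 fits that left out 1 array each, controls or POMCMfn2KO, the ranges were -0.56 to -0.38, -0.95 to -0.70 and -1.01 to -0.77. Hmgcs1 lost its call without any control and without POMCMfn2KO 2 or 3 (adjusted p 0.0622 to 0.142), Fdps without any control and without POMCMfn2KO 2 (0.0511 to 0.0931), and Nsdhl without any control (0.0504 to 0.0561) and without POMCMfn2KO 2 and 3 together (0.0602). With those 2 arrays left out, the log2 changes were -0.58 for Hmgcs1, -0.87 for Fdps and -0.91 for Nsdhl.

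The synthesis genes varied more between POMCMfn2KO mice than between controls. In 16 of 17 the SD was larger in POMCMfn2KO, with a median ratio of 5.13, and over the 29 genes this was so in 27, also with a median ratio of 5.13. Over all 11986 tested genes the SD was larger in POMCMfn2KO in 80.0%, with a median ratio of 2.01. The groups hold 5 and 3 mice, and the ratios are given as a description with no test. The median control SD was 0.06 for the synthesis genes and 0.07 for all tested genes, while the median POMCMfn2KO SD was 0.35 and 0.13. Without POMCMfn2KO 2 and 3, the SD was larger in POMCMfn2KO in 16 of the 17 and in 27 of the 29, with a median ratio of 5.71 for each, against 78.4% and 2.18 for all tested genes. The ranges over the 5 mice were widest for Cyp51 (1.67), Msmo1 (1.56), Idi1 (1.53) and, outside synthesis, Stard4 (1.46).

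The 5 mice had different profiles along the pathway. The median difference of the 17 genes from the control mean was -0.45 in POMCMfn2KO 1, -0.24 in 2, -0.02 in 3, 0.04 in 4 and -0.26 in 5, against -0.015 to -0.022 for all tested genes. POMCMfn2KO 1 was the lowest of the 5 mice in 9 of the 17 genes (27.1% of all tested genes) and below every control in 14 (41.1%). POMCMfn2KO 3 was the highest of the 5 in 8 genes (12.6%) and POMCMfn2KO 4 in 6 (21.7%), and neither was the lowest in any. Of the mice with high pancreatic transcripts, POMCMfn2KO 3 was the highest of the 5 in 8 of the 17 genes and POMCMfn2KO 2 in none. The part of those transcripts in this was not tested. Leaving out 1 array moved the log2 change by over 1.5 times, or turned its sign, for 19 of the 29 genes, for 13 of them when that array was POMCMfn2KO 1, and for none of the 5 that fell. A small log2 change meets this rule easily, and the 5 were called on these same values for changes large for their SE. This difference is therefore no support for the calls. The share of all tested genes that meets the rule was not computed. POMCMfn2KO 1 was the highest of the 5 in 1 synthesis gene, Dhcr7, and over the 29 genes in 6, the others being Scap, Insig2, Mylip, Scarb1 and Npc1. Hmgcs1, Fdps, Msmo1 and Nsdhl were below every control in all 5 mice, whereas Idi1, Sqle and Cyp51 were above in some and below in others.

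**Figure D3:**
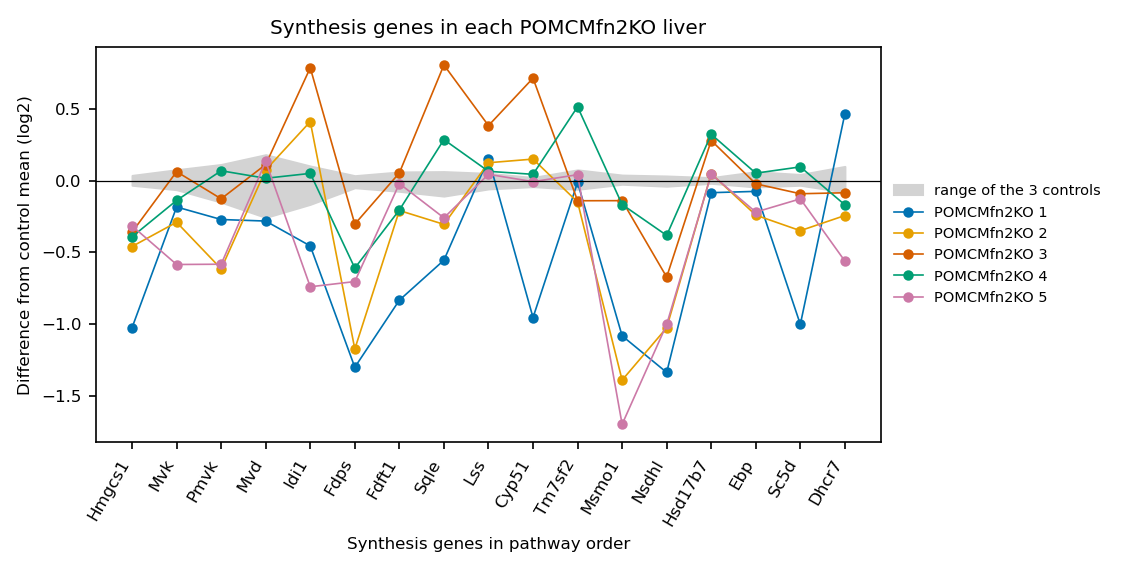
Difference of each POMCMfn2KO mouse from the control mean (log2) for the 17 synthesis genes in pathway order, with the range of the 3 controls in grey. POMCMfn2KO 1 runs low from Hmgcs1 to Nsdhl except at Lss and Tm7sf2, and POMCMfn2KO 3 stands above the controls at Idi1, Sqle, Lss, Cyp51 and Hsd17b7.

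Promoter sequence is shown because enzymes of this pathway share control by SREBP2, which binds the sterol regulatory element and acts with the factors NF-Y and Sp1. RefSeq windows (build GRCm38.p6) of the 250 bases before the annotated start were used for 25 of the 32 genes, 14 of them synthesis genes. Fdps, which fell, is not among the 25. The windows were searched on both strands for TCACNCCAC (sterol regulatory element), CCAAT (NF-Y) and GGGCGG (Sp1). No match of one motif overlapped that of another. CCAAT was present in all 14 synthesis genes with a window, against 39.6% of 9650 tested genes, GGGCGG in 13 of 14 against 61.5%, and TCACNCCAC in 1 of 14, Hmgcs1, against 1.27%. A gene with several windows counted as holding a motif if any window did. Only these exact letters were counted, so a window without a match may still hold an element in other letters. The windows below are those of Hmgcs1 and Nsdhl, which fell, of Idi1 and Cyp51, which were spread on both sides of the controls, and of the receptor gene Lrp1, which fell. Capitals mark matches to CCAAT or TCACNCCAC on either strand, so that ATTGG is CCAAT read from the other strand.
Hmgcs1, chr13:119690101-119690350, plus strand: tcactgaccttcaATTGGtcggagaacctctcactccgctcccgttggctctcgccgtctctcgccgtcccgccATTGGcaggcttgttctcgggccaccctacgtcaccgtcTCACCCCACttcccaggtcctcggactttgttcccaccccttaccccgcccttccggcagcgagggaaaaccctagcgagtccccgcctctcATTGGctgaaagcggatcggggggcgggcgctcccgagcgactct
Nsdhl, chrX:72918271-72918520, plus strand: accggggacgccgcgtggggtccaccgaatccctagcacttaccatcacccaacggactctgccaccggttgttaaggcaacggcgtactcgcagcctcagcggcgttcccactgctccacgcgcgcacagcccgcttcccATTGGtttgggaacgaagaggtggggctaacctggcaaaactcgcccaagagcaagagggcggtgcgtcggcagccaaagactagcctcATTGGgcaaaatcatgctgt
Idi1, chr13:8885356-8885605, plus strand: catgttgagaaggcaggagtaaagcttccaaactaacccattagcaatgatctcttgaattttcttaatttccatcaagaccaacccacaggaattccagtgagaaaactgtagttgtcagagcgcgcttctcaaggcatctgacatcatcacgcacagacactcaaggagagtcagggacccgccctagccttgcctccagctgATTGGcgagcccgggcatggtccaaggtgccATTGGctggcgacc
Cyp51, chr5:4104698-4104947, minus strand: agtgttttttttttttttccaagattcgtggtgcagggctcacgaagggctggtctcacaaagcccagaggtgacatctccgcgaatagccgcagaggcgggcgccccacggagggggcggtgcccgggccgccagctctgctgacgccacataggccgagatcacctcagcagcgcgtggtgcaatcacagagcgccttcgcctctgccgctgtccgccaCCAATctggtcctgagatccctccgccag
Lrp1, chr10:127621149-127621398, minus strand: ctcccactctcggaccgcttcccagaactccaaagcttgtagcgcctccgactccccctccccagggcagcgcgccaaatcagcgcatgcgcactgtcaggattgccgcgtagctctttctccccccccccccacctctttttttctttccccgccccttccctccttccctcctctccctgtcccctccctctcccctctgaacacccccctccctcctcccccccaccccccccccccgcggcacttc
The match to TCACNCCAC in Hmgcs1 begins 137 bases before the start. Hmgcs1 and Nsdhl hold 3 and 2 CCAAT matches, Idi1 holds 2 and Cyp51 holds 1, so that genes that fell and genes with no call both carry the motif. Lrp1 holds none in these letters. Vldlr, the other receptor gene that fell, is not printed and holds 1 CCAAT match in 1 of its 2 windows. A match is a description of sequence, and no binding was measured.

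The largest change among the 29 genes was in uptake. Vldlr, the receptor of very low density lipoprotein, was at 7.47, 7.34 and 7.08 in controls and at 5.82, 6.87, 5.99, 5.65 and 6.50 in POMCMfn2KO 1 to 5. No value overlapped, and the gene fell by 1.13 ± 0.26 (SE), 2.19-fold (adjusted p = 0.0175). POMCMfn2KO 4 was below the dim level of 5.80, so background limits the size of the fall. Of the 5 other probe sets, which were all dim, 1 gave -1.11 and the others -0.15 to -0.65. Lrp1, which takes up lipoprotein remnants, was at 10.34, 10.39 and 10.35 in controls and at 9.79, 10.11, 10.03, 10.19 and 10.15 in POMCMfn2KO 1 to 5. All 5 lay below the controls, POMCMfn2KO 1 farthest, and it fell by 0.31 ± 0.09 (SE), 1.24-fold (adjusted p = 0.0473). A second probe set of Lrp1 gave -0.13 and did not pass (adjusted p = 0.419).

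The other listed uptake genes had higher means. Mylip, a ubiquitin ligase that marks lipoprotein receptors for destruction, was at 9.20, 8.93 and 8.82 in controls and at 9.69, 9.37, 9.27, 8.98 and 9.66 in POMCMfn2KO 1 to 5. Of these, 4 lay above every control and POMCMfn2KO 4 among them, and the log2 change of 0.41 did not pass (adjusted p = 0.109). Without POMCMfn2KO 4 it was 0.52 and passed (adjusted p = 0.0239). Scarb1, the receptor of high density lipoprotein, gave a log2 change of 0.13 (95% interval -0.13 to 0.39; 0.052 to 0.22 with 1 array left out), with 0.16 and 0.10 on its other probe sets. Vldlr lost its call without control 1 (adjusted p = 0.0818) or control 2 (0.0718) and kept it without POMCMfn2KO 2 and 3 together (-1.31, adjusted p = 0.0230). Lrp1 lost its call without any control or without POMCMfn2KO 2, 3 or 5 (0.0506 to 0.154) and without POMCMfn2KO 2 and 3 together (-0.32, 0.149).

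Of the handling genes, the lysosomal exporters Npc1 and Npc2 had means that differed in sign. Npc1, the membrane protein of that pair, was at 10.04, 9.99 and 9.99 in controls and at 10.66, 9.99, 10.10, 10.09 and 10.09 in POMCMfn2KO 1 to 5. POMCMfn2KO 1 stood apart from the other 4, which lay near the controls (0.18, adjusted p = 0.412; 0.059 without it). Npc2, its soluble partner, was at 11.08, 10.99 and 11.07 in controls and at 10.25, 10.63, 10.80, 10.70 and 10.96 in POMCMfn2KO 1 to 5. All 5 lay below the controls, but the log2 change of -0.38 ± 0.14 (SE) did not pass (adjusted p = 0.0865). It passed without POMCMfn2KO 1 (-0.27, adjusted p = 0.0478) or without POMCMfn2KO 5 (-0.45, 0.0428). A second bright probe set of Npc2 gave -0.26 and a near-dim one -0.05.

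Lcat, the enzyme that the liver secretes to esterify cholesterol in plasma, was at 12.03, 12.05 and 11.92 in controls and at 12.22, 12.30, 12.28, 12.02 and 12.36 in POMCMfn2KO 1 to 5. Of these, 4 lay above every control and POMCMfn2KO 4 among them (0.23, adjusted p = 0.0820). Without POMCMfn2KO 4 the change was 0.29 and passed (adjusted p = 0.0161), and it also passed with each array centred on its median (0.26, adjusted p = 0.04996). Stard4, a sterol carrier and SREBP2 target, was at 8.85, 8.82 and 8.86 in controls and at 7.51, 8.61, 8.97, 8.88 and 8.42 in POMCMfn2KO 1 to 5. As for Insig1 and Sqle, POMCMfn2KO 1 was the lowest and POMCMfn2KO 3 the highest (-0.37, adjusted p = 0.411; -0.12 without POMCMfn2KO 1).

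Macrophage markers were lower on average beside these receptors and lysosomal genes. Of 8 Kupffer cell markers, 7 had a lower mean in POMCMfn2KO and 1, Timd4, fell (6.78 ± 0.19 to 6.09 ± 0.15). These are 87.5% and 12.5%, against 54.2% and 10.9% of all tested genes, and the counts were the same without POMCMfn2KO 2 and 3. Their summed level was 13.25 to 13.56 (log2) in controls and 12.73 to 13.46 in POMCMfn2KO, and none was dim in controls. The marker with a higher mean was Clec4f, at 10.16 ± 0.14 in controls and 10.26 ± 0.33 in POMCMfn2KO. Other cell-type lists differed too. The summed level of 6 leukocyte markers was 9.95 to 10.12 in controls and 9.15 to 9.49 in POMCMfn2KO, and 2 of the 6 were dim in controls. Of 3 tested, 1 fell (33.3%, against 10.9% of all tested genes). It was Ly6d (-1.53), which had the highest control level of the 6 and so weighed most in the sum. Ptprc (-0.40) and Cd3e (-0.12) did not pass. The summed level of 7 endothelial markers was 11.64 to 11.95 in controls and 11.83 to 12.24 in POMCMfn2KO, and 1 of the 7 was dim in controls. Of 6 tested, 1, Stab2, rose (0.55), which is 16.7%, against 7.02% of all tested genes. The part of these cell types in the changes of Lrp1, Npc2 and Vldlr was not tested. In whole liver, fewer cells of a type and less RNA per cell cannot be told apart.

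Probe sets of one gene mostly moved together, with exceptions. Among the 29 genes, 19 had more than 1 named probe set, and 16 had more than 1 that was bright. Insig2 and Hsd17b7 had a dimmer probe set with a larger positive change than the brightest one (0.66 against 0.30 and 0.57 against 0.12), Idi1 gave 0.01 and -0.57, and Lss gave 0.15 and -0.21. The probe sets kept for Hmgcs1, Fdft1, Hsd17b7, Vldlr and Scarb1 carry the array design's mark for probes that can also match other sequences, and that of Lss the mark for probes shared by several transcripts.

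**Figure D4:**
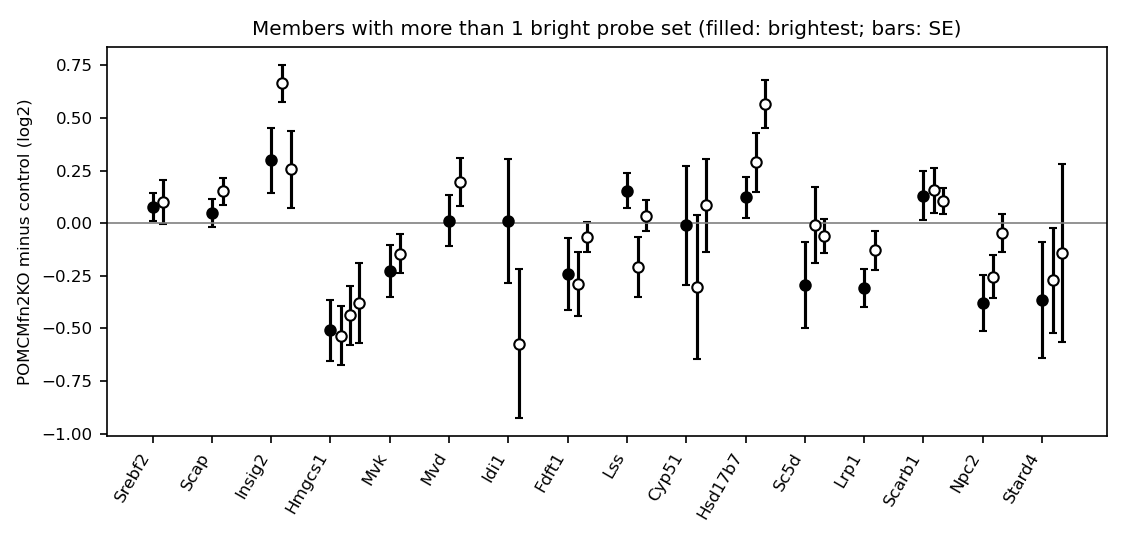
Log2 change (POMCMfn2KO minus control) of every bright probe set for the 16 genes with more than 1, with SE bars. Filled points are the brightest probe set, which was tested, and open points the others. Hmgcs1 lies below 0 on all 4, from -0.53 to -0.38, while Idi1, Lss and Cyp51 have points on both sides of 0.

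Beyond these genes, 64 others of sterol biology and of the neighbouring SREBP1 pathway were listed, of which 54 were tested. Of these, 13 fell (24.1%) and 3 rose, where 10.9% and 7.02% of all tested genes did. The lists were drawn up with earlier results of these arrays known, which already showed the falls of Srebf1, Thrsp, Acly and Pltp and the rise of Elovl6, so the count is a description. Of 8 tested genes of electron donors, acetyl-unit suppliers and other accessory proteins of synthesis, 4 fell and none rose: Cyb5r3, a reductase that feeds electrons to sterol oxidases (-0.63), Acss2, which makes acetyl-CoA (-0.57), Acly (-0.56) and the sterol-regulated protein gene Tmem97 (-0.50). Cyb5r3 was at 12.25, 12.15 and 12.33 in controls and at 11.33, 11.51, 11.66, 12.09 and 11.52 in POMCMfn2KO 1 to 5, without overlap. Of 7 genes of the isoprenoid branch, which shares farnesyl diphosphate with sterol synthesis, 2 fell and none rose. These were Coq2 (-0.60) and Pdss2 (-0.41), both of coenzyme Q synthesis.

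Among 6 genes that process SREBP or degrade sterol-regulated proteins, Erlin2 fell (-0.40) and none rose. Of 5 genes of sterol efflux, Abca1, which loads cholesterol on high density lipoprotein, fell from 12.08 ± 0.03 to 11.76 ± 0.08 (-0.32, adjusted p = 0.0104), and none rose. Of 10 genes of transport within the cell and ester hydrolysis, the hydrolase gene Nceh1 rose (0.47) and none fell. Of 8 genes of lipoprotein uptake and remodelling, Pltp (-1.42) and the receptor chaperone gene Lrpap1 (-0.40) fell, and Lipg, an endothelial lipase gene, rose (0.50). In the SREBP1 list of 10, Srebf1 (-1.52), Thrsp (-2.03) and Scd1 (-0.70) fell and Elovl6 (0.37) rose. Without POMCMfn2KO 2 and 3, 4 of the 54 fell (7.41%, against 3.35% of all tested genes) and none rose (against 1.99%). They were Acly, Pltp, Srebf1 and Thrsp, the 4 falls already known when the lists were drawn up. The difference between these shares of falls therefore rests on genes listed with their falls known. The lists without these 4 genes held no call there. Without control 1, 2 or 3, 5, 7 and 6 of the 54 fell and none rose, where 4.14%, 4.46% and 4.67% of all tested genes fell.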

How the data were processed

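Whole-liver RNA of 3 control and 5 POMCMfn2KO mice was measured on 1 array each. The authors deposited log2 values per probe set made with RMA in the affy package, per the submitters' processing notes (versions not given in the sources used here). The scanner files were not used here. Of 45101 probe sets, 64 were controls, 34945 had 1 gene symbol, 932 several and 9160 none. The brightest probe set of each of 18193 genes was kept, and 6207 genes with a mean below 5.80 were left out as dim. The other 11986 entered the test of limma 3.58.1, run under R 4.3.3 (no trend, not robust, 2-sided, Benjamini-Hochberg adjustment, threshold 0.05). The test was checked on simulated data with the same SD in both groups, so that check does not cover the unequal spread described above. Members, lists and alternatives were chosen with earlier results of these data known. All members were described, and of the wider lists every gene past the threshold. Alternatives changed the filter, probe set, scaling, variance model, replicate block and threshold, and left out arrays. Arrays carry no read depth, so their number limits the precision. Same-numbered arrays were not treated as pairs in the main fit, since the labels do not say that the numbers pair mice. Figures used matplotlib 3.10.9.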

Additional observations from a re-analysis of the deposited data

Results flagged for a closer look

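In the POMCMfn2KO group of 5, the value of 1 mouse stood apart from the other 4 for 4 of the 29 genes examined, its gap to the nearest mouse being over the critical share of the group's range. Chance alone gives this in about 5% of groups. The rule was not run over all tested genes, so the count is not shown to be particular to these genes. Over all tested genes, POMCMfn2KO 1 was the lowest of the 5 in 27.1% and the highest in 27.1%. POMCMfn2KO 1 was low for Hmgcs1 (10.778, others 11.34 to 11.49) and for Mvd (6.37, others 6.67 to 6.79) and high for Npc1 (10.66, others 9.99 to 10.10). POMCMfn2KO 4 was high for Tm7sf2 (11.83, others 11.17 to 11.36). Without POMCMfn2KO 1, Hmgcs1 kept its call with a log2 change of -0.38.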

How the results depend on the processing

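Over 506 refits of single members, 435 kept direction and side of the threshold, 32 lost a call, 13 gained one and 26 turned sign, none of the last among the 5 called genes. Small changes turn sign most easily, so this is no support for the 5 calls. The number of members that fell (5) was 3 with no filter, 2 with all probe sets averaged, 1 of 16 on the second brightest probe set, 3 after quantile normalization and 2 without POMCMfn2KO 2 and 3, 7 with array weights by genotype (Msmo1 and Npc2 joined, adjusted p = 0.0289 and 0.0276), 6 at an adjusted p of 0.1 (Npc2 joined), and 0 to 6 with 1 array left out. Of all genes tested in each setting, 7.26% fell with no filter, 10.7% with all probe sets averaged and 7.25% on the second brightest probe set. The share was 10.3% after quantile normalization, 3.35% without POMCMfn2KO 2 and 3 and 15.7% with array weights, against 10.9% in the main fit. Vldlr was too dim to be tested with all probe sets averaged, on its second brightest probe set and under a stricter filter. That filter, 1 log2 unit higher, left 27 members, of which 4 fell, where 13.7% of all tested genes fell. The number of members that rose (0) was 1 on the second brightest probe set (Insig2), 1 with arrays centred on their median, 1 after quantile normalization, 1 with array weights and 1 at an adjusted p of 0.1 (Lcat in each), and 0 to 2 with 1 array left out. Over all genes, 350 of 4811 rose on the second brightest probe set and 1055 of 11986 with arrays centred. After quantile normalization 953 of 11988 rose, and with array weights 1323 of 11986, against 842 in the main fit. Of the wider genes, 7 fell on the second brightest probe set and 4 without POMCMfn2KO 2 and 3, 5 to 15 with 1 array left out. Of these, 1 rose when all probe sets were averaged, 0 without POMCMfn2KO 2 and 3, and 0 to 3 with 1 array left out.

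Lrp1 lost its call with arrays centred on their median (adjusted p = 0.0610), and Hmgcs1 and Lrp1 with no filter (0.0510 and 0.0570) and after quantile normalization (0.0560 and 0.0539). With no filter their log2 changes stayed at -0.51 and -0.31, and both the variance model and the adjustment ran over 18193 genes in place of 11986. The cause of the lost calls was not tested in any of these settings.

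Sign turned for Cyp51 with arrays centred (0.011), Idi1 with all probe sets averaged (-0.28), on the second probe set (-0.57) and without POMCMfn2KO 2 and 3 (-0.38), Lss with all probe sets averaged (-0.0059) and on the second (-0.21), Mvd without POMCMfn2KO 2 and 3 (-0.043) and Sqle with arrays centred (0.016). With 1 array left out the range was -0.19 to 0.23 for Cyp51, -0.18 to 0.20 for Idi1, -0.12 to 0.10 for Mvd, -0.21 to 0.13 for Sqle and -0.064 to 0.10 for Tm7sf2.

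Same-numbered arrays deviated with correlations of 0.04, 0.04 and -0.03, and differently numbered ones with -0.08 to 0.05. These values gave no sign that the replicate numbers pair the mice, but so few arrays cannot exclude it. With the replicate number as a block, 5 members fell (Pmvk joined and Hmgcs1 was lost, adjusted p = 0.0511) and 1 rose (Mylip), Dhcr7 turned to 0.047, Mvd to -0.031 and Tm7sf2 to -0.10, and of all tested genes 1176 fell and 715 rose in place of 1310 and 842.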
